A study of Danio rerio with 6 samples.

Results

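The transcriptome of control tailbud tissue was described from the 3 control libraries of a zebrafish (Danio rerio) RNA-seq series of 6 libraries, the rest of which, sall4 morphants, were not used here. The control group was taken whole from the sample labels, and no measured value entered the choice. Control 1 was made from embryos that had received a scrambled morpholino, an antisense oligomer with no intended target, and controls 2 and 3 from non-injected embryos, so the injected and the non-injected state are represented by 1 and 2 libraries. All were tissue caudal to the youngest somite at 16 hours post fertilisation (hpf), and strain, sex and the number of pooled embryos are not stated in the labels. Whether the libraries came from separate clutches is not stated either, so every SD and p-value measures only the spread between these libraries, which may be technical. Levels are given as FPKM, fragments per kilobase of gene divided by a factor for each library, for 32520 gene rows, and as mean ± SD with n = 3. These factors are not in the ratio of the total counts, so which library is highest or lowest in FPKM rests on them.

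The tailbud is the growth zone of the vertebrate embryo. Its progenitors, among them neuromesodermal cells that express tbxta together with sox2, give rise to spinal cord and to presomitic mesoderm, the tissue from which somites are cut off in the rhythm of a segmentation clock. Wnt and Fgf signals keep the progenitors going, T-box and Cdx factors direct them to mesoderm and to posterior identity, and retinoic acid from the somites acts against them from the front. In a bulk sample like this, many cells of a type with little RNA and fewer cells with more RNA cannot be told apart.

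The control libraries held 19718510 (control 1), 18687559 (control 2) and 42423495 (control 3) counts, and a count was present for 23540, 23893 and 24721 genes in controls 1, 2 and 3. Mitochondrially encoded mRNA took 5.04%, 6.68% and 6.03% of the counts. A row that RefSeq lists as ribosomal RNA (zgc:158463) took 1.46%, 0.440% and 1.47%, and 9 clone-named rows without a gene symbol took 2.65%, 1.15% and 3.70%, both lowest in control 2. Across the 14158 genes of at least 1 FPKM, the length of a gene and its deviation from the 3-library mean had a Spearman correlation of 0.24 in control 1, −0.13 in control 2 and −0.09 in control 3 (given as a description, since genes are not independent).

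A mean of at least 1 FPKM was reached by 14158 rows (43.5%), and 13073 reached it in every control. At least 10 FPKM was reached by 5326 rows (16.4%), at least 100 FPKM by 716 and at least 1000 FPKM by 84. Every count of list rows at 1 or 10 FPKM given below is to be read against these shares of all rows. Those shares include rows without a gene symbol, whereas the lists hold named genes. Of 20374 nuclear protein-coding rows matched to RefSeq, 11778 reached 1 FPKM and 4819 reached 10 FPKM, which are larger shares. A list whose share is close to that of all rows therefore lies below that of protein-coding rows. No count was found in any control for 6308 rows. The level was concentrated in few rows, since the 10 highest held 20.2% and the 50 highest held 41.5% of the summed mean FPKM.

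Of a list of housekeeping genes, 47 of 48 rows reached 1 FPKM and 46 reached 10 FPKM. Among the 30 highest rows, 8 carried a clone or mitochondrial contig name without annotation, 1 was the ribosomal RNA row, 6 were mitochondrial mRNAs, 5 encoded ribosomal proteins and 10 were other protein-coding genes. The mitochondrial mt-co2, a subunit of cytochrome oxidase, led the annotated genes with 11802 FPKM (control 1), 15027 FPKM (control 2) and 15883 FPKM (control 3). Among protein-coding genes of the nucleus, the apolipoprotein gene apoc1 (ENSDARG00000092170) was the highest apart from the ribosomal protein gene si:dkey-151g10.6 (a RefSeq synonym is rpl41), at 9206 FPKM (control 1), 8506 FPKM (control 2) and 8112 FPKM (control 3). Further nuclear genes among these 30 were ptmab (prothymosin alpha, 3758 ± 179 FPKM), slc25a5 (the mitochondrial ADP/ATP carrier, 3500.1 ± 264 FPKM), actb2 (cytoplasmic actin, 3315 ± 315 FPKM) and hmgb2a (a chromatin protein of dividing cells, 3215 ± 271 FPKM). The elongation factor gene eef1a1l1 was less even, with 3368 FPKM (control 1), 2521 FPKM (control 2) and 4586 FPKM (control 3).

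**Figure D1:**
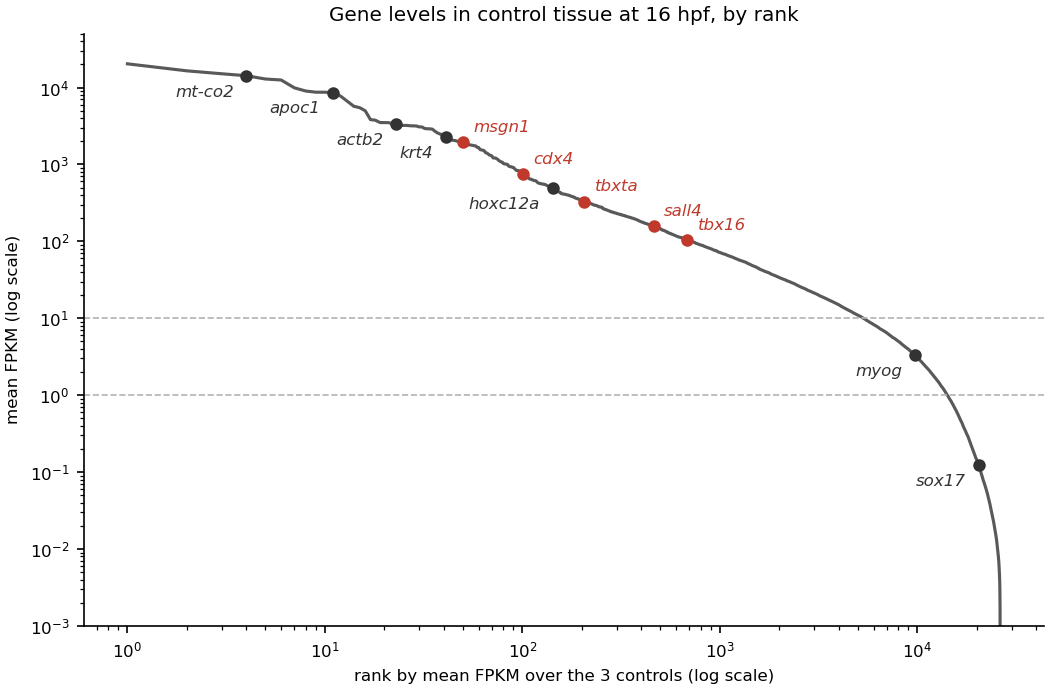
Mean FPKM over the 3 controls (y axis, log scale) against the rank of the gene (x axis, log scale), with the 5 tailbud markers in red, other genes in dark grey and dashed lines at 1 and 10 FPKM. The markers sit between rank 50 (msgn1) and rank 683 (tbx16), at 1928 FPKM and 104 FPKM, while the muscle gene myog lies at 3.33 FPKM and the endoderm gene sox17 at 0.124 FPKM.

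All 5 marker genes of the tailbud were among the 683 highest rows of the table. The highest was msgn1 (ENSDARG00000070546), a bHLH factor of presomitic mesoderm, with 1446 FPKM (control 1), 2314 FPKM (control 2) and 2025 FPKM (control 3). Its mean of 1928 ± 442 FPKM put it at rank 50 of all rows and rank 33 of protein-coding genes. The caudal-type homeobox gene cdx4 (ENSDARG00000036292) followed with 555 FPKM (control 1), 877 FPKM (control 2) and 789 FPKM (control 3), rank 101. The Brachyury gene tbxta (ENSDARG00000101576), needed for tail and notochord, had 303 FPKM (control 1), 343 FPKM (control 2) and 333 FPKM (control 3), rank 206. The zinc finger gene sall4 (ENSDARG00000044485), the morpholino target in the morphants of the series, had 140.1 FPKM (control 1), 162 FPKM (control 2) and 168 FPKM (control 3), rank 461. The T-box gene tbx16 (ENSDARG00000007329), which drives progenitors into mesoderm, had 94.1 FPKM (control 1), 113 FPKM (control 2) and 105 FPKM (control 3), rank 683. In FPKM the order was the same in each library, and the ranges of neighbours in that order did not overlap. That order of different genes rests on the gene lengths used. Control 1 was the lowest of the libraries for all 5 (for all expressed genes, 4377 of 14158). In the list of tailbud progenitor genes it was the lowest for 15 of the 24 expressed rows. Of the markers, msgn1 and cdx4 spread most, with a highest value 1.60 and 1.58 times the lowest. The rank of sall4 depends on the gene length used: the length implied by the table was 4.18 times the median gene's, and by CPM, counts scaled to library depth and not divided by length, sall4 stood at rank 94.

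Of the rows in the list of tailbud progenitor genes, 24 of 29 reached 1 FPKM and 22 reached 10 FPKM, against 43.5% and 16.4% of all rows. Besides the markers, noto, a homeobox gene of notochord progenitors, was at 213 ± 47.1 FPKM and eve1, a ventral and posterior homeobox gene, at 189.9 ± 16.2 FPKM. The neural member of the neuromesodermal pair, sox2, had 99.8 FPKM (control 1), 122 FPKM (control 2) and 109 FPKM (control 3), and its relative sox3 had 111 FPKM (control 1), 109 FPKM (control 2) and 105 FPKM (control 3). Both were thus close to the level of tbx16 and below that of tbxta in each library. Among the secreted factors, fgf8a was at 104 ± 26.1 FPKM, fgf4 at 36.6 ± 5.34 FPKM and wnt3a at 8.77 ± 1.32 FPKM. The rows of wnt8a, a Wnt ligand of the ventral and posterior margin, were listed at 0 and at 0.0103 FPKM. How the authors' counting treated reads shared between rows is uncertain, so these values do not show that wnt8a was absent. Of the evx1 rows, 1 was at 0 and the other at 0.429 FPKM.

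Presomitic mesoderm was strongly represented, with 27 of 28 list rows at 1 FPKM or more and a median of 94.4 FPKM. After msgn1 came tbx6, a T-box factor of this tissue, with 814 FPKM (control 1), 694 FPKM (control 2) and 842 FPKM (control 3). The repressor gene hes6 was at 747 ± 111 FPKM, tcf15 (paraxis) at 249.9 ± 58.4 FPKM and snai1a, a factor of cell motility, at 201 ± 57.8 FPKM. Genes of the determination front were lower. The level of mespab was 86.4 ± 27.2 FPKM, of mespbb 31.5 ± 7.44 FPKM, of ripply1 83.3 ± 15.6 FPKM and of ripply2 89.9 ± 17.3 FPKM. The somite gene tbx18 was at only 1.16 ± 0.234 FPKM.

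The clock and Notch list had 32 of 35 rows at 1 FPKM or more and 28 at 10 FPKM or more. The cyclic repressor gene her1 had 425 FPKM (control 1), 306 FPKM (control 2) and 599 FPKM (control 3), and its partner her7 had 204 FPKM (control 1), 159 FPKM (control 2) and 237 FPKM (control 3). The Notch ligand gene dlc had 158 FPKM (control 1), 123.2 FPKM (control 2) and 189 FPKM (control 3), while dld, a ligand gene with a graded pattern, was more even at 74.7 FPKM (control 1), 83.2 FPKM (control 2) and 85.9 FPKM (control 3). Control 2 was thus the lowest for the cyclic her1, her7 and dlc, and across the list it was the lowest library for 22 of the 32 expressed rows (for all expressed genes, 5967 of 14158). Further members were her12 (273 ± 42.9 FPKM), her2 (161 ± 54.8 FPKM), the Notch feedback gene nrarpa (172 ± 9.58 FPKM) and lfng, which modifies Notch by adding sugars (78.3 ± 13.1 FPKM). The receptor gene notch1a was at 53.4 ± 13.6 FPKM.

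Among 509 rows whose names match families of transcription factors, 344 reached 1 FPKM and 224 reached 10 FPKM. The families searched do not include AP-1, whose genes fosab and junbb averaged 612 FPKM and 521 FPKM. The highest of the matched rows was id1 (ENSDARG00000040764), an HLH inhibitor induced by BMP, with 2619.8 FPKM (control 1), 2782 FPKM (control 2) and 3386 FPKM (control 3). The mesodermal msgn1, tbx6, hes6 and cdx4 came next, then hoxc12a and her1. Next among the 25 highest came myf5, a myogenic factor already expressed in presomitic mesoderm, with 289 FPKM (control 1), 575 FPKM (control 2) and 379.7 FPKM (control 3). The list further held sp5l, a Wnt target (259 ± 21.09 FPKM), mych, a Myc family gene (256 ± 64.8 FPKM), foxc1a of paraxial mesoderm (221 ± 34.7 FPKM), and sp8a (219.5 ± 15.4 FPKM) and sp6 of the fin fold ectoderm. The values of sp6 were 300.0 FPKM (control 1), 164 FPKM (control 2) and 188 FPKM (control 3), so control 1 stood highest. The neural sox19a was at 204 ± 25.4 FPKM.

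**Figure D2:**
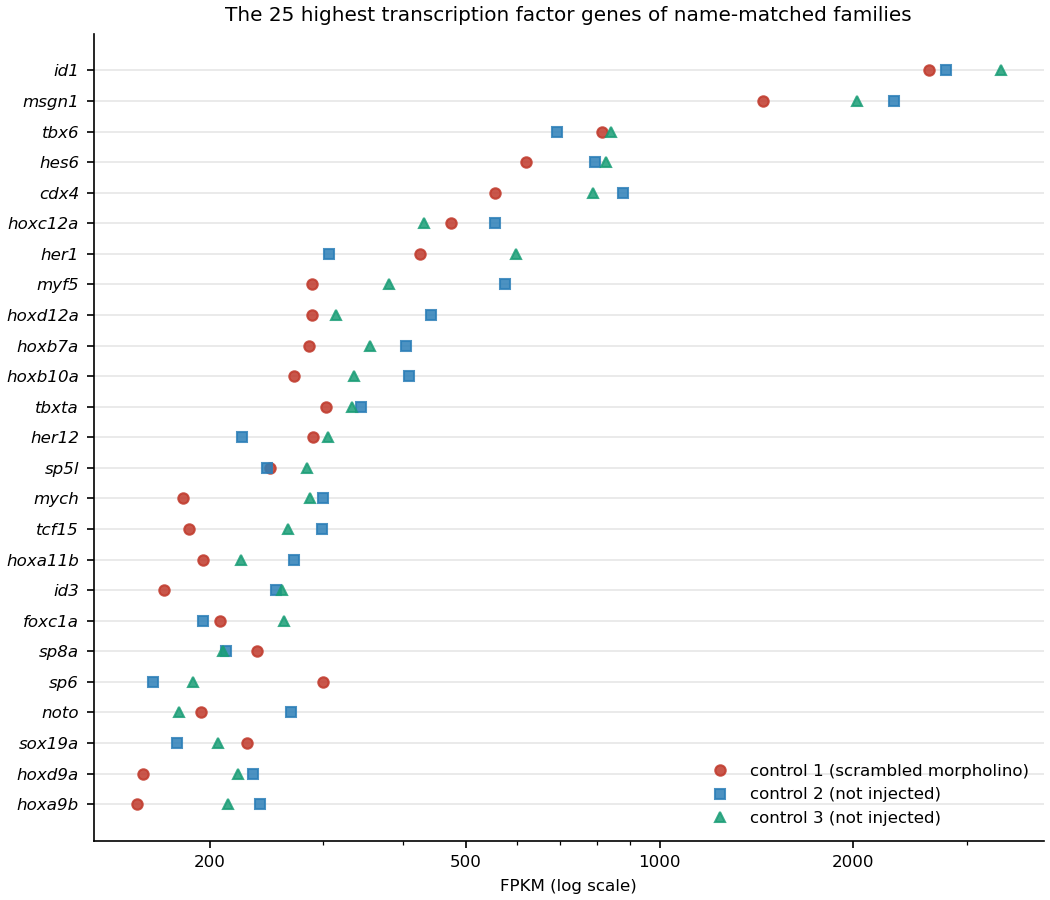
FPKM (x axis, log scale) of the 25 highest transcription factor genes of the families matched by name, AP-1 not among them (y axis, in order of the mean), in control 1 (circles), control 2 (squares) and control 3 (triangles). The values of msgn1 lie at 1446, 2314 and 2025 FPKM in controls 1, 2 and 3, and all hox genes shown except hoxc12a are lowest in control 1.

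Posterior hox genes, which give cells along the body axis their position, were abundant. Of 48 hox genes, 46 reached 1 FPKM and 45 reached 10 FPKM. The 18 genes of paralog groups 10 to 13 held 53.1% of the summed hox FPKM (55.9%, 53.6% and 50.1% in controls 1, 2 and 3), the 13 genes of groups 6 to 9 held 32.6%, and the 17 genes of groups 1 to 5 held 14.3%. The largest sums belonged to group 12 (898 ± 146 FPKM) and group 9 (872 ± 139 FPKM), which overlapped in their spread, and group 1 had the smallest at 77.4 ± 19.8 FPKM. The highest hox gene was hoxc12a with 474 FPKM (control 1), 555 FPKM (control 2) and 430.3 FPKM (control 3). It was followed by hoxd12a (348 ± 81.9 FPKM), hoxb7a (348 ± 59.8 FPKM) and hoxb10a (338 ± 68.6 FPKM), whose ranges over the libraries overlapped. The group 1 sum came almost wholly from hoxb1b at 75.1 ± 19.4 FPKM, and hoxa1a and hoxb1a stayed below 1 FPKM.

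Most hox genes were lowest in control 1, but several group 13 genes, the most posterior, went the other way. Control 1 was lowest for 34 of the 46 expressed hox genes (for all expressed genes, 4377 of 14158). The gene hoxa13a had 103 FPKM (control 1), 42.6 FPKM (control 2) and 46.7 FPKM (control 3), hoxb13a had 37.1 FPKM (control 1), 10.7 FPKM (control 2) and 9.28 FPKM (control 3) and hoxc13b had 66.8 FPKM (control 1), 30.9 FPKM (control 2) and 32.4 FPKM (control 3). In hoxc13a the values were 222 FPKM (control 1), 129 FPKM (control 2) and 118 FPKM (control 3). In these 4 genes control 1 stood above both non-injected controls, while hoxa13b was even at 84.2 FPKM (control 1), 85.4 FPKM (control 2) and 79.1 FPKM (control 3). The remaining group 13 gene, hoxd13a, had 96.8 FPKM (control 1), 124 FPKM (control 2) and 86.0 FPKM (control 3), highest in control 2. Outside this group hoxc12b was also highest in control 1, with 86.2 FPKM (control 1), 64.4 FPKM (control 2) and 38.2 FPKM (control 3). The contrast of scrambled-injected with non-injected controls did not call hoxb13a at the threshold of 0.05 (log2 fold change 1.87, SE 0.28, adjusted p = 0.052 by edgeR), nor the others.

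**Figure D3:**
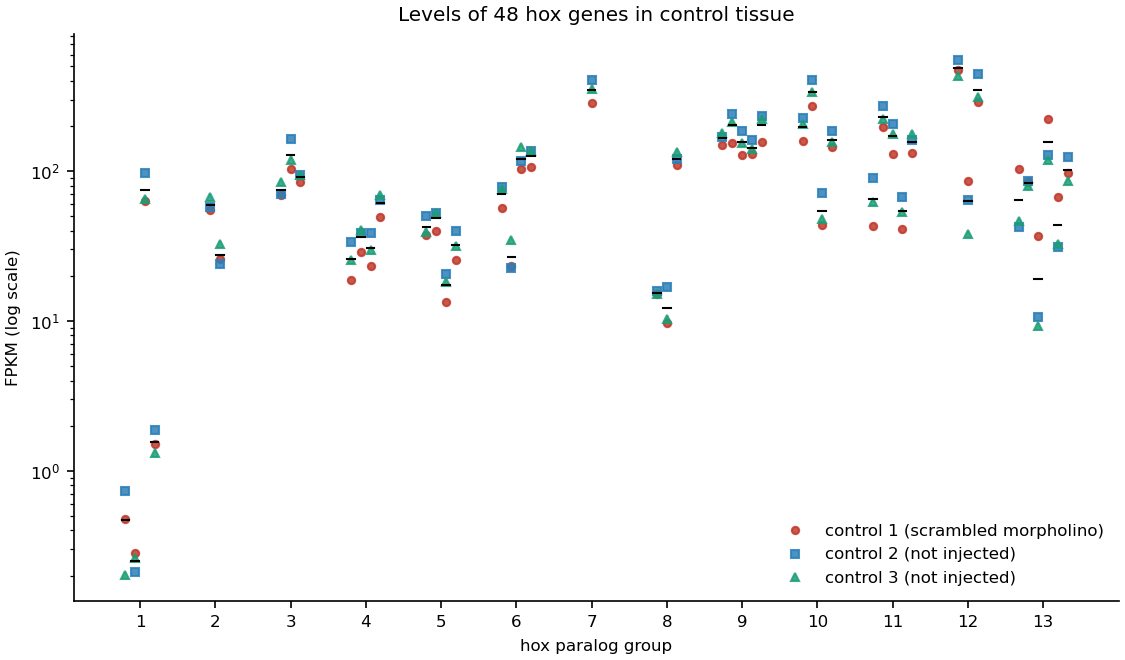
FPKM (y axis, log scale) of 48 hox genes by paralog group (x axis, groups 1 to 13), with control 1 as circles, control 2 as squares, control 3 as triangles and the mean as a black line. Within a group, genes are in alphabetical order, and groups 9 to 12 hold most genes above 100 FPKM.

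The Wnt list, with 42 of 49 rows at 1 FPKM or more, was led by the effector ctnnb1 (beta-catenin) at 646 FPKM (control 1), 374 FPKM (control 2) and 636 FPKM (control 3). Of the ligands, as counted by the authors, wnt5b was highest (80.8 ± 2.73 FPKM), above wnt5a (21.3 ± 7.79 FPKM), wnt11 (19.1 ± 4.09 FPKM) and wnt3a (8.77 ± 1.32 FPKM). Receptors were abundant, with fzd2 at 171 ± 12.7 FPKM, fzd10 at 150.5 ± 27.0 FPKM, fzd7b at 131 ± 6.01 FPKM and fzd7a at 122.7 ± 8.63 FPKM. Among target and feedback genes, sp5l was at 259 ± 21.09 FPKM, sp5a at 61.4 ± 10.4 FPKM and axin2 at 9.76 ± 1.19 FPKM. The secreted inhibitor gene notum1b varied, with 91.6 FPKM (control 1), 36.7 FPKM (control 2) and 64.4 FPKM (control 3). Control 2 was the lowest library for 30 of the 42 expressed rows of the list (for all expressed genes, 5967 of 14158), and whether gene length has a part in that was not tested.

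For Fgf signalling, 35 of 40 rows reached 1 FPKM. The ligand genes fgf8a (75.6, 127 and 108 FPKM in controls 1, 2 and 3) and fgf3 (96.7, 92.5 and 98.9 FPKM in controls 1, 2 and 3) were the highest, and fgf3 was the more even of the pair. Of the tyrosine kinase receptors, fgfr1a (26.6 ± 0.160 FPKM), fgfr1b (25.1 ± 4.44 FPKM) and fgfr4 (21.4 ± 2.05 FPKM) were the highest, and the range of fgfr1b overlapped those of the other two, while fgfr3 was at 1.295 ± 0.104 FPKM. Feedback inhibitors that Fgf induces led the list: spry4 was at 177 ± 18.8 FPKM, spry2 at 129.6 ± 7.81 FPKM and dusp6 at 128 ± 14.8 FPKM. The target gene etv5b had 126 FPKM (control 1), 84.2 FPKM (control 2) and 137 FPKM (control 3).

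Genes of retinoic acid metabolism and response were unequal, with 22 of 29 rows at 1 FPKM or more. The degrading enzyme gene cyp26a1 had 90.7 FPKM (control 1), 153 FPKM (control 2) and 124 FPKM (control 3), against 19.3 FPKM (control 1), 11.8 FPKM (control 2) and 20.6 FPKM (control 3) for the synthesising enzyme gene aldh1a2. In every library cyp26a1 stood above aldh1a2, and the other degrading enzymes cyp26b1 and cyp26c1 were at 0.00454 and 0.223 FPKM. The binding protein gene crabp2b (318 ± 28.4 FPKM) led this list, followed among receptors by rarga (58.2 ± 9.33 FPKM). In the BMP and TGF-beta list 43 of 48 rows reached 1 FPKM. After id1 came id3 (227 ± 49.9 FPKM) and the pseudoreceptor gene bambia (90.02 ± 4.48 FPKM), and of the ligands bmp4 was at 21.5 ± 4.37 FPKM, gdf11 at 25.6 ± 1.08 FPKM and bmp2b at 14.3 ± 6.14 FPKM. The antagonist nog1 was at 56.5 ± 3.58 FPKM. In the Hedgehog list 19 of 22 rows reached 1 FPKM; ligand genes were low, with shha at 8.69 ± 2.30 FPKM and ihhb at 11.3 ± 2.61 FPKM, while smo, which passes the signal into the cell, was at 36.4 ± 3.29 FPKM.

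Markers of the other tissues the piece could hold were present to very different degrees. Of the notochord list 25 of 29 rows reached 1 FPKM (median 30.7 FPKM), led after tbxta by col8a1a (304 ± 53.7 FPKM), noto and emilin3a (159 ± 37.8 FPKM). This list shares tbxta, tbxtb and noto with the tailbud progenitor list. It also holds copa, copb2, lamc1, lamb1a and lama1, so its count is not limited to genes particular to the notochord. For spinal cord progenitors the count was 34 of 40 (median 21.6 FPKM), with sox19a highest, her3 at 115 FPKM (control 1), 272 FPKM (control 2) and 150.9 FPKM (control 3), msx1b at 148 FPKM (control 1), 221 FPKM (control 2) and 143 FPKM (control 3) and olig4 at 109 FPKM (control 1), 232 FPKM (control 2) and 144 FPKM (control 3). Each of her3, msx1b and olig4 was highest in control 2, as were 20 of the 34 expressed rows of this list (for all expressed genes, 5037 of 14158). Of the neuron list 24 of 40 rows reached 1 FPKM, and the median was only 1.71 FPKM, although elavl3, an early neuronal gene, was at 22.9 ± 4.73 FPKM and neurog1, a proneural gene, at 34.3 FPKM (control 1), 69.9 FPKM (control 2) and 33.2 FPKM (control 3). In the floor plate and hypochord list 16 of 19 rows reached 1 FPKM, among them foxa2 (38.1 ± 2.78 FPKM) and spon1b (22.4 ± 6.24 FPKM). In the neural crest list 13 of 21 rows reached 1 FPKM, led by snai2 (61.8 ± 6.96 FPKM) and tfap2c (56.2 ± 5.65 FPKM), while sox10 was at 8.39 ± 2.05 FPKM and the pigment gene dct was listed at 0.

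Genes of the somite and muscle list ranged from 3 rows of at least 100 FPKM, with myf5 and actc1a among them, to late muscle genes listed at 0. In the somite and muscle list 22 of 39 rows reached 1 FPKM, with a median of 1.11 FPKM. The early myogenic factor myod1, expressed in adaxial cells, had 78.3 FPKM (control 1), 121 FPKM (control 2) and 80.0 FPKM (control 3), but myog had 3.48 FPKM (control 1), 2.93 FPKM (control 2) and 3.58 FPKM (control 3). The rows of the cardiac actin gene actc1a were at 398 and 365 FPKM. Of the late myosin genes, myhz2 and a row each of myhz1.1 and smyhc2 were listed at 0, as was the dermomyotome gene pax7a.

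Skin was prominent, and 33 of 36 rows of the epidermis and periderm list reached 1 FPKM (median 43.9 FPKM). By name, 15 of 24 keratin rows reached 1 FPKM. The keratin genes krt4 (3073, 1679 and 1969 FPKM in controls 1, 2 and 3), cyt1 (2731, 1936 and 1549 FPKM in controls 1, 2 and 3) and cyt1l (2499.7, 1797 and 1414 FPKM in controls 1, 2 and 3) had ranges that overlapped that of msgn1. In all 3 of these keratins control 1 was the highest library, as it was in 10 of the 15 expressed keratin rows (for all expressed genes, 5264 of 14158). The basal layer factor tp63 was at 42.2 ± 6.51 FPKM, krt5 at 833 ± 67.4 FPKM and epcam at 413 ± 91.5 FPKM. Genes of the fin fold, a fold of epidermis around the tail, were all at 1 FPKM or more in 18 of 18 rows, and 16 were highest in control 1 (for all expressed genes, 5264 of 14158). Whether gene length has a part in that was not tested. Members of the fin fold list above 100 FPKM were sp8a, sp8b (197 ± 29.4 FPKM), sp9 (194 ± 28.9 FPKM) and dlx5a (115 ± 13.6 FPKM).

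**Figure D4:**
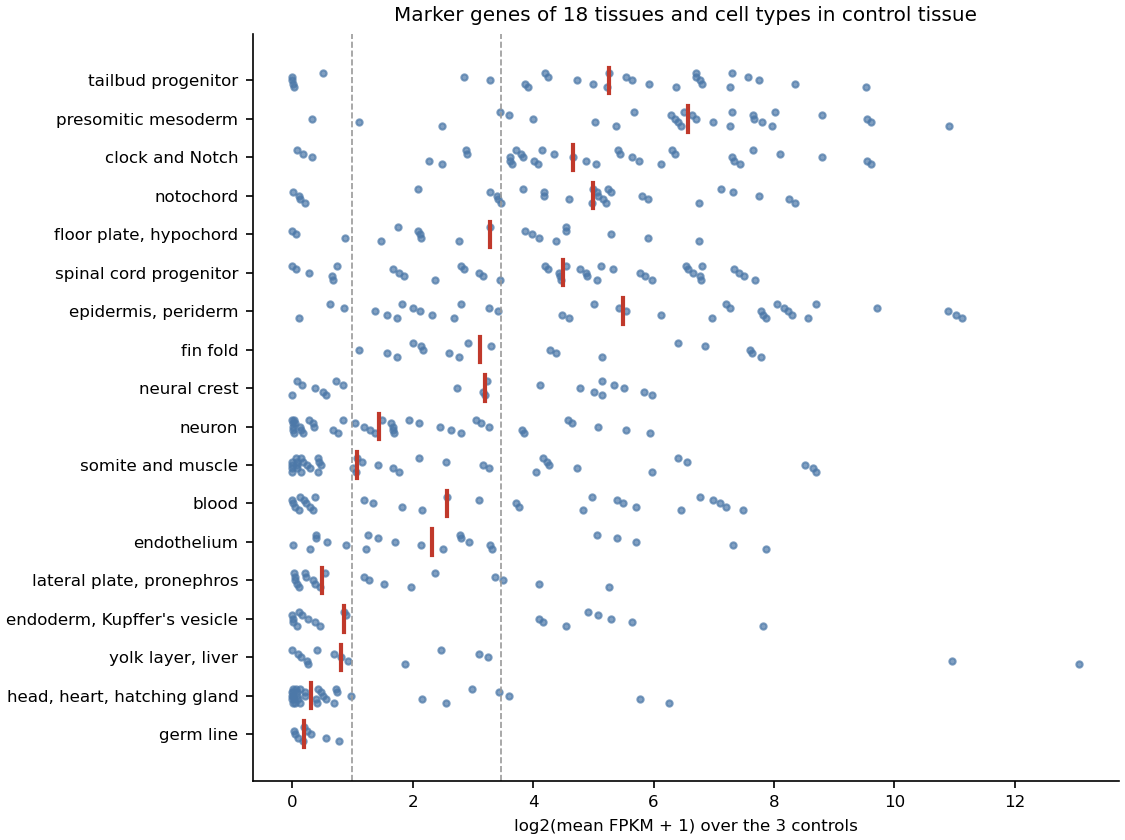
Mean FPKM over the 3 controls, plotted as log2(mean FPKM + 1) (x axis), of the members of 18 marker lists (y axis). Each dot is a gene row, red bars are medians and dashed lines stand at 1 and 10 FPKM. The presomitic mesoderm, epidermis and tailbud lists have the highest medians of these lists, and no germ line gene reaches 1 FPKM.

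Endoderm and Kupffer's vesicle, the ciliated organ of left-right asymmetry, gave a divided list, with 8 of 19 rows at 1 FPKM or more, all 8 of them also at 10 FPKM or more. That is 42.1%, against 43.5% of all rows at 1 FPKM and 16.4% at 10 FPKM. Among its members, dand5, a Nodal antagonist, was at 30.6 FPKM (control 1), 50.7 FPKM (control 2) and 65.4 FPKM (control 3). The Nodal ligand gene spaw was at 17.1 FPKM (control 1), 17.2 FPKM (control 2) and 16.6 FPKM (control 3). The list shares foxa1, foxa2 and foxj1a with the floor plate and hypochord list, and foxa2 and foxa3 with the notochord list. The endoderm genes sox17 and sox32 were at 0.124 FPKM and 0.0837 FPKM. Of the endothelial list 16 of 22 rows reached 1 FPKM. Its early members included etv2 at 31.1 FPKM (control 1), 28.6 FPKM (control 2) and 37.3 FPKM (control 3) and the apelin receptor genes aplnra (232 ± 11.4 FPKM) and aplnrb (159 ± 11.9 FPKM), which mesoderm also expresses, whereas later vessel genes were low, with kdrl at 1.70 ± 0.206 FPKM and cdh5 at 1.39 ± 0.406 FPKM. Lateral plate and pronephros genes reached 1 FPKM in 9 of 20 rows (45%, against 43.5% of all rows). They were led by prrx1a (37.2 ± 10.1 FPKM) and the kidney gene lhx1a (16.1 FPKM on average). The level of pax2a was 1.04 FPKM (control 1), 3.43 FPKM (control 2) and 4.28 FPKM (control 3). No row of the 9 germ line genes reached 1 FPKM, and the highest was nanos3 at 0.188 FPKM (control 1), 0.609 FPKM (control 2) and 1.34 FPKM (control 3).

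Genes of the head, heart and hatching gland, which lie in front of the dissected piece, mostly stayed below 1 FPKM. Only 7 of 34 rows (20.6%) reached that level, and 24 were above 0 but below it. The rows of myl7 of the heart, en2b of the midbrain and rx2 of the eye were listed at 0 in every control. Control 3 differed for the hatching gland: the hatching enzyme gene he1.1 had 3.44 FPKM (control 1), 2.24 FPKM (control 2) and 155 FPKM (control 3), and the row of ctslb with the highest level had 0.455 FPKM (control 1), 0.124 FPKM (control 2) and 28.8 FPKM (control 3). The summed FPKM of the whole list was 83.3, 119 and 311 in controls 1, 2 and 3, and its part in other differences of control 3 was not tested. This list also holds hoxb1b, described above with the hox genes, at 62.8, 97.4 and 65.0 FPKM in controls 1, 2 and 3. That gene made up most of the sum in controls 1 and 2. Without control 3, 4 of the 34 rows reached 1 FPKM. In the yolk and liver list 6 of 15 rows (40%, against 43.5% of all rows) reached 1 FPKM. There apoa2 had 0.882 FPKM (control 1), 3.00 FPKM (control 2) and 21.8 FPKM (control 3), highest in control 3. The abundant apoc1 and apoeb, which are also expressed outside the yolk layer, did not follow this pattern, and apoeb had 2329 FPKM (control 1), 1868 FPKM (control 2) and 1780.3 FPKM (control 3).

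Genes of DNA replication and mitosis were widely expressed. In the cell cycle list 48 of 51 rows reached 1 FPKM and 41 reached 10 FPKM. The replication clamp gene pcna had 296 FPKM (control 1), 287 FPKM (control 2) and 285 FPKM (control 3) and the ribonucleotide reductase gene rrm2 had 384 FPKM (control 1), 374 FPKM (control 2) and 412 FPKM (control 3) in its higher row. The mitotic genes ccnb1 (167 ± 8.80 FPKM) and cdk1 (152 ± 15.11 FPKM) were lower than these. The cell cycle inhibitor cdkn1ca was also high at 305 ± 49.4 FPKM. Of the pluripotency and Myc list 20 of 26 rows reached 1 FPKM, and mych, sall4 and mycb (150.9 ± 41.7 FPKM) led, followed by the RNA-binding protein gene igf2bp1 (115 ± 2.81 FPKM), while pou5f3, an Oct4 relative, was at 67.7 FPKM (control 1), 65.7 FPKM (control 2) and 63.3 FPKM (control 3) and nanog at 0.970 FPKM. Subunit genes of NuRD, a deacetylase complex known to bind SALL4 in mammals, reached 1 FPKM in 13 of 14 rows, led by rbbp4 (149 ± 14.7 FPKM) and hdac1 (119 ± 13.2 FPKM). Other sall genes were lower than sall4: sall1a was at 17.3 ± 1.65 FPKM, sall3b at 11.1 ± 3.20 FPKM, and sall3a and sall1b were below 1 FPKM.

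Most genes differed little between the 3 controls. Over the 14158 genes of at least 1 FPKM the median SD of log2(FPKM + 1) was 0.19, and the median coefficient of variation was 16.1%, or 12.7% for the 5326 genes of at least 10 FPKM. Controls 1 and 3 lay closest, with 214 genes (1.51%) more than 2-fold apart on that log2 scale, a Pearson correlation across genes of 0.981 and a typical gene 1.12-fold apart. Controls 2 and 3, both non-injected, differed by over 2-fold in 352 genes (2.49%, Pearson 0.972, typical gene 1.17-fold apart). Controls 1 and 2 differed in 530 genes (3.74%, Pearson 0.964, typical gene 1.21-fold apart). The pair of non-injected libraries was therefore not the closest pair. The biological coefficient of variation fitted by edgeR was 0.19 for controls 1 and 3, 0.24 for controls 2 and 3, and 0.28 for controls 1 and 2.

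The spread relative to the mean was smaller for more abundant genes up to 1000 FPKM. The median coefficient of variation was 21.5% for the 4065 genes of 1 to 3 FPKM, 13.7% for the 3091 genes of 10 to 30 FPKM and 10.4% for the 632 genes of 100 to 1000 FPKM. It was 11.8% for the 84 rows above. Of the genes of at least 10 FPKM, the highest library exceeded 2 times the lowest in 268 (5.03%), against 1595 (11.3%) at 1 FPKM. Control 2 was the library farthest from the mean in 174 of the 268, low in 117 and high in 57. Control 1 was farthest in 81 (high in 24, low in 57) and control 3 in 13. The most even genes included ogt.1, which encodes the O-GlcNAc transferase (15.5, 15.5 and 15.5 FPKM in controls 1, 2 and 3 in the more even of its 2 rows), ndufb4 of respiratory complex I (85.7, 85.9 and 85.9 FPKM in controls 1, 2 and 3) and ywhaqa, a 14-3-3 protein gene (162, 160.4 and 160.5 FPKM in controls 1, 2 and 3).

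Some gene groups differed between libraries together. Collagen genes were lowest in control 2 in 26 of 31 expressed rows (for all expressed genes, 5967 of 14158) and highest in control 1 in 22 (5264 of 14158). In all, 31 of 54 collagen rows reached 1 FPKM. Among them, col1a1a had 603 FPKM (control 1), 204 FPKM (control 2) and 330.1 FPKM (control 3) and col2a1a had 143 FPKM (control 1), 46.1 FPKM (control 2) and 132 FPKM (control 3). Collagen genes are long, and the length correlations given above run the same way; the part of length was not tested. Ribosomal protein genes, which are short, were lowest in control 1 in 76 of 89 expressed rows (of 95 in the table; for all expressed genes, 4377 of 14158), and rps15 had 2939.5 FPKM (control 1), 3484 FPKM (control 2) and 3704 FPKM (control 3). All mitochondrial mRNAs but mt-atp8 were lowest in control 1.

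Several immediate early genes, which cells switch on within minutes of a stimulus, were highest in control 2 and lowest in control 1. Of the 32 expressed rows of the heat and stress list, 17 were highest in control 2 (for all expressed genes, 5037 of 14158) and 15 were lowest in control 1 (4377 of 14158). The summed FPKM of the list was 3143 in control 1, against 6208 in control 2 and 5352 in control 3. Among the 10 least even genes of at least 10 FPKM, atf3, a stress-induced factor, had 5.17 FPKM (control 1), 121 FPKM (control 2) and 21.5 FPKM (control 3) and fosl1a, an AP-1 subunit gene, had 5.47 FPKM (control 1), 94.8 FPKM (control 2) and 22.5 FPKM (control 3). The abundant AP-1 genes fosab (230.2, 967 and 638 FPKM in controls 1, 2 and 3) and junbb (222, 837 and 505 FPKM in controls 1, 2 and 3) had the same order of libraries. Chosen after its values were seen, ldha, a glycolytic enzyme induced by low oxygen, had 7.37 FPKM (control 1), 40.2 FPKM (control 2) and 11.1 FPKM (control 3), in the same order. The lncRNA si:dkey-85k7.7 had 0.499 FPKM (control 1), 90.04 FPKM (control 2) and 8.79 FPKM (control 3). The small heat shock protein gene hspb1 differed, with 90.1 FPKM (control 1), 693 FPKM (control 2) and 1109 FPKM (control 3), so only control 1 was low.

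**Figure D5:**
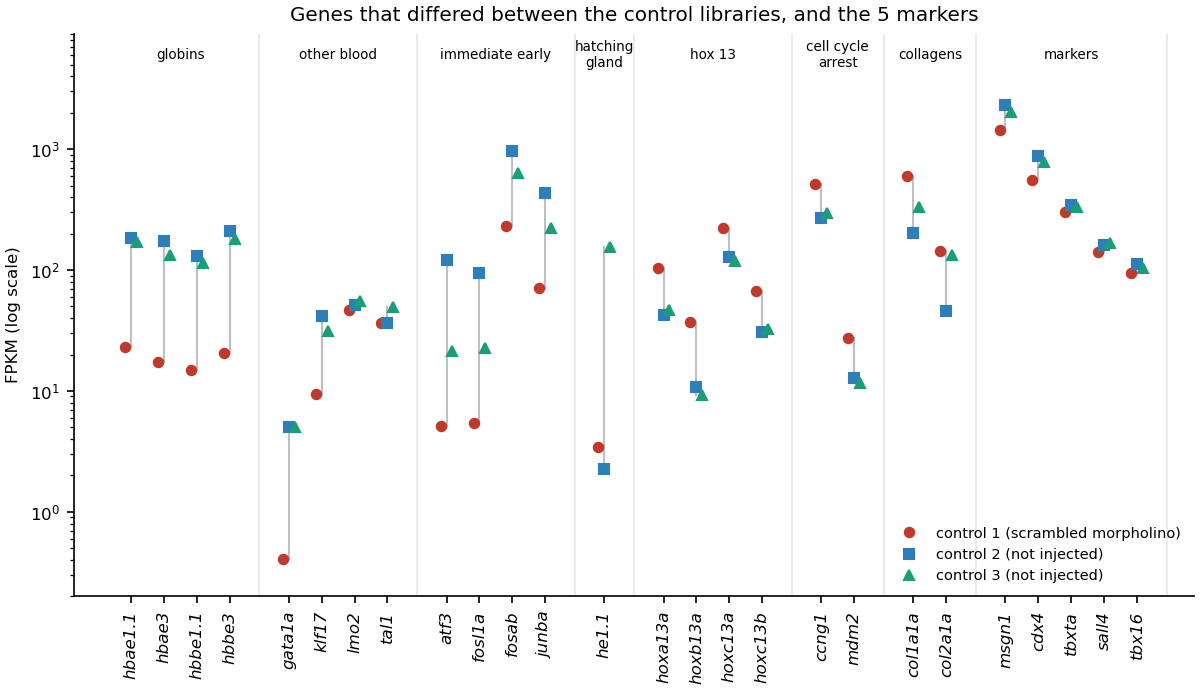
FPKM (y axis, log scale) in control 1 (circles), control 2 (squares) and control 3 (triangles) of selected genes and of the 5 markers (x axis). The selected genes are blood, immediate early, hatching gland, hox group 13 and collagen genes, and ccng1 with mdm2. Of hox group 13 only genes highest in control 1 are shown, without hoxa13b and hoxd13a. The heading cell cycle arrest covers only ccng1 and the ubiquitin ligase gene mdm2, both highest in control 1. The genes btg2 and gadd45ba of the apoptosis and arrest list, lowest in control 1, are not shown. The globins sit lowest in control 1, atf3 and fosl1a highest in control 2 and he1.1 highest in control 3. Within each of tbxta, sall4 and tbx16, the values of the libraries lie close together.

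Within the control group the only labelled difference was injection, so control 1 was set against controls 2 and 3 by edgeR's quasi-likelihood test on counts. With 1 library against 2, the lone library is assumed to vary like the others, and the injection and that library cannot be told apart. Of 18580 tested genes 17 passed an adjusted p of 0.05 (0.0915%), 2 of them higher (0.0108%) and 15 lower (0.0807%) in the scrambled-injected control, while 829 had an unadjusted p under 0.05. DESeq2 called 53 genes and limma-trend on log2(FPKM + 1) called 0, with 698 at an unadjusted p under 0.05, and edgeR without its filter on low counts called 0, with 635. A gene that did not pass is not thereby shown to be alike in the libraries. None of the 5 markers passed; their log2 fold changes (scrambled-injected minus non-injected) ran from −0.62 (cdx4) to −0.19 (tbxta), all with an edgeR adjusted p of 0.99.

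Of the genes that passed, those lower in control 1 were mainly erythroid. In the blood list 19 of 29 rows reached a mean of 1 FPKM, and of 24 tested rows 9 passed, all lower, and 23 lay below both non-injected controls, a position taken by 34.6% of all tested genes. The embryonic beta globin gene hbbe3 (ENSDARG00000038147) had 10.3 CPM in control 1, against 106 CPM in control 2 and 91.0 CPM in control 3 (log2 fold change −3.26, SE 0.34, adjusted p = 0.0061 by edgeR). The alpha globin gene hbae3 had 12.9 CPM in control 1, against 132 CPM in control 2 and 100.1 CPM in control 3 (log2 fold change −3.17, SE 0.35, adjusted p = 0.0062 by edgeR). The erythroid master regulator gata1a had 0.797 CPM in control 1, against 10.1 CPM in control 2 and 10.1 CPM in control 3 (log2 fold change −3.65, SE 0.47, adjusted p = 0.017 by edgeR). The other 6 rows were hbae1.1, hbbe1.1, hbbe1.2, hbbe1.3 and a pair of rows named hbae1.3, with log2 fold changes from −3.12 to −2.97. Some of these globin genes are near-identical copies within the alpha or within the beta group, and how the authors' counting split reads between such copies is uncertain. The summed FPKM of the whole blood list was 259 in control 1, against 1502 in control 2 and 1307 in control 3. Of the factors of earlier blood and vessel precursors, tal1 had 90.5 CPM in control 1, against 92.5 CPM in control 2 and 126 CPM in control 3 (log2 fold change −0.27, SE 0.30, adjusted p = 0.99 by edgeR). The value of lmo2 was 79.2 CPM in control 1, against 89.0 CPM in control 2 and 96.1 CPM in control 3 (log2 fold change −0.22, SE 0.28, adjusted p = 0.99 by edgeR). By CPM both were lowest in control 1 too, and neither passed.

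The other 6 genes that were lower in the scrambled-injected control were not in the blood list. The salt transporter gene slc12a3 had 1 count in control 1, against 509 counts in controls 2 and 3 together, a ratio of library-scaled rates of 0.00579 (exact 95% interval 0.000146 to 0.0324, counting error only). The claudin gene cldnc had 0.498 CPM in control 1, against 13.1 CPM in control 2 and 12.8 CPM in control 3 (log2 fold change −4.69, SE 0.50, adjusted p = 0.0061 by edgeR). The respiratory chain genes ndufa4 (−4.70, SE 0.42) and cox6b1 (−3.32, SE 0.47) were lower, as were hspb1 (−3.35, SE 0.37) and the immediate early gene egr4 (−2.30, SE 0.34). The level of ndufa4 was 0.792 FPKM (control 1), 18.62 FPKM (control 2) and 21.8 FPKM (control 3).

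The 2 genes that were higher were a fin fold gene and a bHLH factor gene. The actinodin gene and1 (ENSDARG00000088514), which encodes a fibre protein of the fin fold, had 22.3 CPM in control 1, against 3.10 CPM in control 2 and 4.48 CPM in control 3 (log2 fold change 2.54, SE 0.36, adjusted p = 0.035 by edgeR). The other, bhlha9 (ENSDARG00000103981), known in mammals for limb development, had 53.7 CPM in control 1, against 15.5 CPM in control 2 and 15.5 CPM in control 3 (log2 fold change 1.79, SE 0.27, adjusted p = 0.047 by edgeR). Of the 18 fin fold rows tested and1 alone passed, and 16 lay above both non-injected controls, a position taken by 33.8% of all tested genes. The median log2 fold change of the fin fold list was 0.58, against −0.01 for all tested genes. Across expressed genes, length had a Spearman correlation of 0.24 with the deviation of control 1. The part of gene length in the fin fold shift was not tested.

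Genes of apoptosis and cell cycle arrest were examined beside this contrast. Of this list 31 of 33 rows reached 1 FPKM. None of 32 tested rows passed, 17 lay above both non-injected controls and 11 below both, against 33.8% and 34.6% of all tested genes. Among the abundant members, the cyclin G gene ccng1 had 513 FPKM (control 1), 272 FPKM (control 2) and 298 FPKM (control 3) (log2 fold change 0.82, SE 0.25, adjusted p = 0.73 by edgeR), highest in control 1. The antiproliferative genes btg2 and btg1 had 372, 645 and 523 FPKM in controls 1, 2 and 3 and 192, 179.9 and 188 FPKM in controls 1, 2 and 3, so btg2 was lowest in control 1 (log2 fold change −0.68, SE 0.27, adjusted p = 0.99 by edgeR). The stress-induced gadd45ba had 52.4 FPKM (control 1), 186 FPKM (control 2) and 80.9 FPKM (control 3) (log2 fold change −1.38, SE 0.45, adjusted p = 0.8 by edgeR), also lowest there. Chosen after its values were seen, the ubiquitin ligase gene mdm2 had 27.3 FPKM (control 1), 12.9 FPKM (control 2) and 11.6 FPKM (control 3) (log2 fold change 1.13, SE 0.27, adjusted p = 0.32 by edgeR), highest in control 1.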

How the data were processed

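Gene-level counts and FPKM values were deposited by the authors in 1 workbook, with 1 column per library in each table. Per the submitters' processing notes, the build was GRCz11 and the tools included STAR 2.7.10a and DESeq2 1.38.3. For their roles, for the annotation and for the tool and strand setting of the counting, the value is not given in the sources used here, so counts of overlapping, antisense and near-identical genes are uncertain. The deposited FPKM values equal count divided by a gene length and by 1 factor per library. That factor was 0.499 and 0.500 of the control 3 factor in controls 1 and 2, which is not the ratio of total counts. No column was left unmapped, and no row lacked a gene. A name recurred in 721 rows, and each row counts as a list member. Biotypes were matched by symbol to RefSeq (GRCz12tu) for 20828 rows, and no coordinates or sequences are printed.

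Only the 3 control columns were used. Genes were ranked by mean FPKM, and TPM was computed as an alternative. Agreement was measured on log2(FPKM + 1). The scrambled-injected control was compared with the 2 non-injected ones by edgeR 4.0.16 (R 4.3.3; TMM, filterByExpr, quasi-likelihood F test, two-sided, Benjamini-Hochberg over 18580 genes). It leaves 1 residual degree of freedom, and the SE is the log2 fold change divided by the square root of F. CPM are on TMM-scaled library sizes. DESeq2 1.42.0 and limma 3.58.1 were alternatives. The fits were tested on simulated data. Figures were drawn with matplotlib 3.10.9.

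Members, the 33 gene lists and the 6 name patterns were chosen with earlier results of these data known. Genes named were the 5 markers, the 30 highest rows, the 25 highest transcription factors, the 5 highest members of each list and its members at 0 where it marks another tissue, all hox genes, the 10 most and 10 least even genes of at least 10 FPKM, and up to 8 genes past the threshold in each direction. Results of some genes these rules name are not reported here. Other genes were chosen after their values were seen as examples of their list. With so few libraries, and up to 42423495 counts in each, depth limits only low genes: 3 counts, the limit a count of 0 allows, are 0.152, 0.161 and 0.0707 CPM in controls 1, 2 and 3.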

Additional observations from a re-analysis of the deposited data

How the results depend on the processing

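No paired analysis was possible because the scrambled-injected and the non-injected controls share no replicate numbers and the morphants were not used. The number of genes of at least 1 FPKM (14158) was 15722 in TPM, 15772 in CPM, 13073 with that level in every control, 16377 at a threshold of 0.5 and 14122 to 14208 when a control was left out. The rank of each marker moved by less than 1.5 times by the median and when a control was left out, from 44 to 58 for msgn1 and from 663 to 722 for tbx16. By CPM, though, sall4 ranked 94 in place of 461. In TPM the ranks were 50 for msgn1 and 681 for tbx16. TPM rescales each library by 1 factor, so it could hardly move a rank and is no check on it. The median SD lay between 0.14 and 0.23. The numbers of genes over 2-fold apart (530 for controls 1 and 2, 214 for controls 1 and 3, 352 for controls 2 and 3) were 177, 65 and 100 at 10 FPKM or more and 1079, 434 and 680 with a pseudocount of 0.1, with the pairs in the same order. With the trend on gene length removed they were 491, 204 and 329, and the median SD was 0.183 in place of 0.189. In the contrast of scrambled-injected with non-injected controls, the 17 genes called became 53 by DESeq2, 0 by limma-trend on log2(FPKM + 1) and 0 with a pseudocount of 0.1 (698 and 671 at an unadjusted p under 0.05), 120 on plain library totals and 0 without a filter on low counts (635 at an unadjusted p under 0.05). They were 19 with median-of-ratios size factors, 19 with robust settings, 22 at 50 counts or more in every control and 13 against a fold floor of 1.5. The cause of these differences was not tested. Leaving out a control leaves 1 library against 1 and no test. Over 2-fold differences on log2(CPM + 1) then numbered 235 to 666, against 279 with all 3. The count of list members at 1 or 10 FPKM, recomputed without each control in turn as an alternative chosen after seeing the data, moved by over 1.5 times only for the head, heart and hatching gland list. There, 4 rows reached 1 FPKM without control 3, and 5 reached 10 FPKM without control 1 or without control 2, against 7 and 3. With members below 1 FPKM removed, no median could be had for the germ line list.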

Other observations

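Cilium genes were measured at low to moderate levels, with 23 of 30 rows at 1 FPKM or more and 4 at 10 FPKM or more. The regulators of motile cilia foxj1a (21.0, 13.1 and 14.4 FPKM in controls 1, 2 and 3) and rfx2 (33.2, 23.2 and 30.5 FPKM in controls 1, 2 and 3) led with daw1, an assembly factor of cilia (21.7, 13.9 and 19.4 FPKM in controls 1, 2 and 3). Of the 23 expressed rows, 17 were highest in control 1 (for all expressed genes, 5264 of 14158) and 0 in control 3 (3857 of 14158). Of the Polycomb and chromatin list 22 of 23 rows reached 1 FPKM. Among them were ezh2, the H3K27 methyltransferase gene (12.2 ± 1.46 FPKM), eed (33.6 ± 5.62 FPKM) and the maintenance DNA methyltransferase gene dnmt1 (18.1 ± 0.9503 FPKM). Interferon response genes mostly stayed below 1 FPKM, with 8 of 28 rows at 1 FPKM or more and 0 at 10 FPKM or more. The most abundant of these, b2m, an MHC class I light chain gene, had 1.71 FPKM (control 1), 1.69 FPKM (control 2) and 6.91 FPKM (control 3), and cmpk2 and ifit15 were listed at 0.

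Matrix and adhesion genes were widely expressed, with 39 of 42 rows at 1 FPKM or more. The basement membrane gene nid2a had 183 FPKM (control 1), 74.1 FPKM (control 2) and 179 FPKM (control 3), and control 2 was lowest. The cadherin genes pcdh8 of presomitic mesoderm (98.9 ± 11.1 FPKM) and cdh2 (94.2 ± 23.6 FPKM) overlapped in their spread, and the fibronectin gene fn1b was at 67.1 ± 11.3 FPKM. By summed FPKM of a cluster, hox ca was highest at 1447 and hox bb lowest at 132.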
